A study of Mus musculus with 4 samples.

Results

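The genes described here make cholesterol and fatty acids. The set holds 31 named genes of the pathway that the sterol regulatory element binding proteins (SREBPs) control, chosen by their place in the pathway. Of these, 30 had a probe set carrying their symbol alone, and all 30 lay above the level filter, out of 12509 genes tested and 18193 genes named on the array. Acat2 was not analysed here. For each gene the probe set with the highest mean signal stands for the gene. RNA came from immortalized mouse embryonic fibroblasts (MEFs) in which both Paxip1 alleles, the gene of the MLL3/MLL4 complex subunit PTIP, were flanked by loxP sites. Cells labelled PTIP -/- had received a retrovirus with Cre recombinase and cells labelled PTIP +/+ the empty retroviral vector, so the controls carry the floxed alleles and the vector too. All cells were grown in serum and selected with puromycin. Each genotype gave 2 RNAs, numbered 1 and 2, for 4 Affymetrix arrays. The sources used here do not state whether a number marks a separate culture, infection or extraction. The p-values thus measure only the spread between these RNAs, which may not be that between independent cultures. The number of arrays limits the precision of every value.

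Cholesterol is built from acetyl-CoA by way of mevalonate, isoprenoid diphosphates and squalene, and fatty acids from acetyl-CoA by way of malonyl-CoA. SREBPs are transcription factors held in the membrane of the endoplasmic reticulum by SCAP and INSIG proteins. When membrane sterol is low, SCAP carries them to the Golgi, where proteases free the part that enters the nucleus and raises transcription of the enzymes of both routes. Fibroblasts in culture use this loop to balance their own synthesis against cholesterol taken up from serum lipoproteins.

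Paxip1, the deleted gene, had signals of 43.5 and 74.6 on PTIP -/- replicates 1 and 2, against 1029.5 and 1040.1 on the PTIP +/+ pair. Fibroblast markers were present: all 8 listed, Col1a1 and Vim among them, lay above the filter on every array. The 2 numbers differed in some of them: Thy1 read 14822.9 and 16080.1 in number 1 against 1500.7 and 239.2 in number 2, on PTIP -/- and PTIP +/+ in each case. Of the markers of fat cells, 3 of 4 lay below the filter on every array, with a summed signal of 81.7 to 120.4 in PTIP +/+ and 45.9 to 191.4 in PTIP -/-. The summed signal of 5 macrophage, 4 endothelial, 4 epithelial and 4 skeletal muscle markers ran from 501.3 to 623.4, from 169 to 300.1, from 548.4 to 1270.4 and from 328.7 to 9030.2, the last through Acta1 in number 2. The highest epithelial sum was on PTIP +/+ replicate 2, through Krt19 (84.3 and 345.7 on PTIP -/- replicates 1 and 2, 239.7 and 1038.6 on the PTIP +/+ pair), while Epcam was lowest there at 220.4 and Cdh1 lay below the filter on every array. Above the filter on every array were 4 of 5 macrophage, 1 of 4 endothelial, 2 of 4 epithelial and 2 of 4 muscle markers. Signals are the deposited linear intensities, and the filter is a signal of 47.68.

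The enzymes of cholesterol synthesis stood highest on a single array, PTIP +/+ replicate 2. On the brightest probe sets all 17 of them had their highest signal there, as did 24 of the 30 genes, against 24.9% of all genes tested. Of the 17, Hmgcs1, Lss, Sc5d and Hsd17b7 also had further probe sets above the filter that were highest on other arrays. Krt19 also peaked on PTIP +/+ replicate 2, and its part in the result was not tested. The genotype comparisons within the 2 numbers ran in opposite directions. Within number 1, a comparison of 1 array with 1 array and hence without a test, 25 of 30 genes were higher in PTIP -/-, against 53.7% of all genes, with a median log2 difference of 0.33 beside 0.03 for all genes. Within number 2, 25 of 30 were lower in PTIP -/-, against 45.6% of all genes, with a median of -0.50 beside 0.05. The same gene was higher in number 1 and lower in number 2 for 22 of 30, against 19.8% of all genes, and the reverse held for 2 (Scap and Fasn), against 20.4%.

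**Figure D1:**
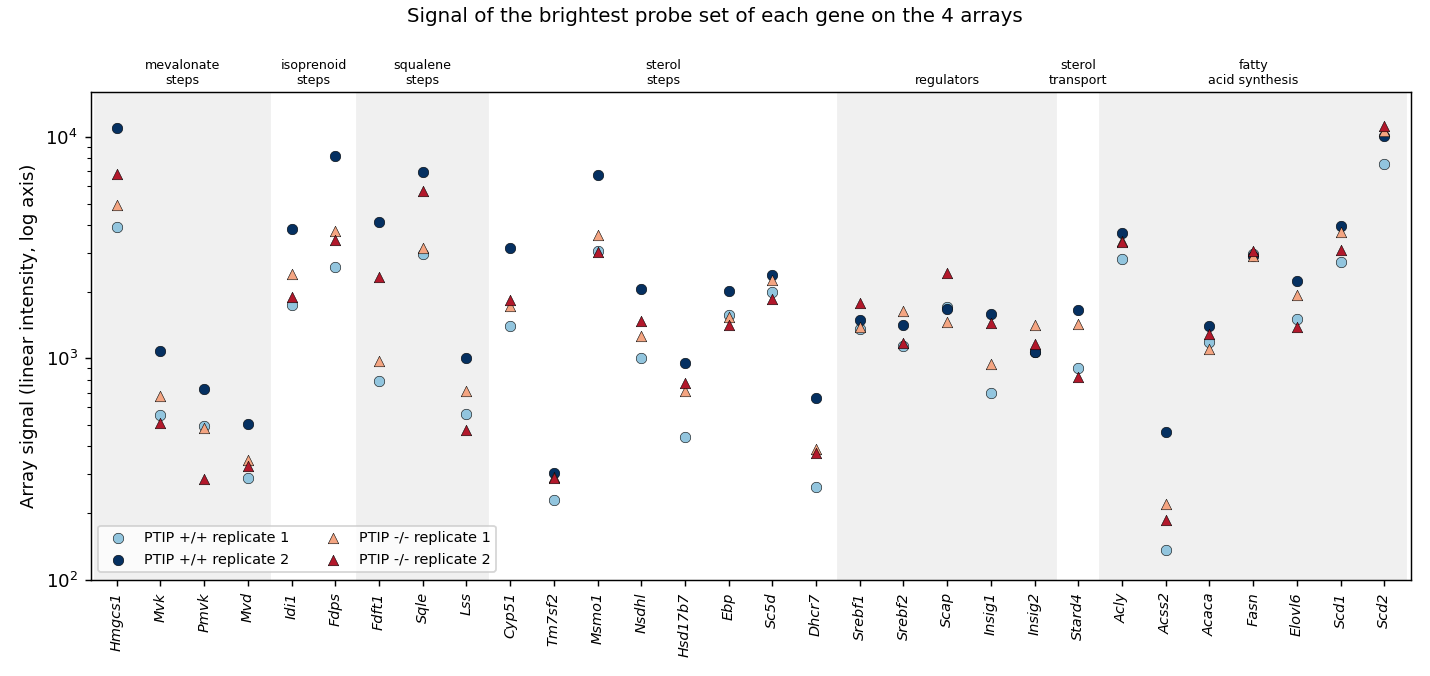
Array signal (linear intensity on a log axis) of the brightest probe set of each of the 30 genes, grouped by role, with circles for PTIP +/+ and triangles for PTIP -/- and the darker shade for replicate 2. PTIP +/+ replicate 2, the dark circle, is the highest of the 4 for all 17 cholesterol synthesis enzymes.

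The differences in number 2 were the larger. There PTIP -/- was lower by 1.5-fold or more for 14 of 30 genes, where 11.2% of all genes were, and 0 were at least 1.5-fold higher, where 16.5% were. In number 1, 3 of 30 (Hsd17b7, Stard4 and Acss2) were at least 1.5-fold higher, close to the 10.9% of all genes, and 0 were at least 1.5-fold lower, where 6.1% were. The number 1 shift was thus made of many small differences: it ran from -0.23 for Scap to 0.69 for Acss2. With each array centred on its median (all genes then have a median change of -0.13, not 0.05), the median of the 30 genes became 0.10 in number 1, beside -0.20 for all genes, and -0.62 in number 2, beside -0.07. The count that was higher in number 1 and lower in number 2 was then 21, and with quantile normalization 22.

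**Figure D2:**
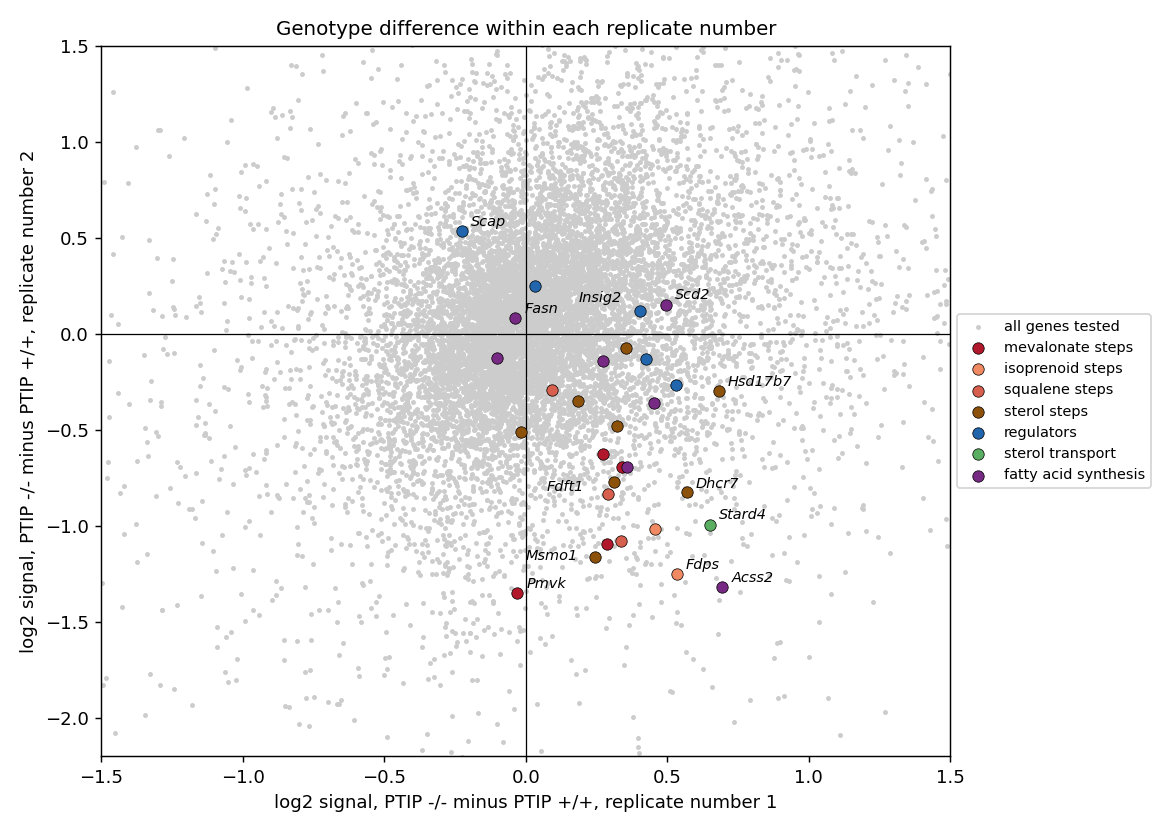
Difference in log2 signal between PTIP -/- and PTIP +/+ within replicate number 1 (horizontal axis) and number 2 (vertical axis), with the 12509 genes tested in grey, of which 716 lie outside the axes, and the 30 genes coloured by role. Most coloured points lie at the lower right, 22 of 30, and regulators lie above most enzymes.

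Fitted over all 4 arrays, these opposite differences largely cancelled. With limma, 0 of the 30 genes passed at an adjusted p under 0.05 and 0 at an unadjusted p under 0.05, where 0% and 2.29% of all genes did. The genes numbered 11 higher and 19 lower in PTIP -/-, or 3 higher and 27 lower with centred arrays, and their median log2 change was -0.12 beside 0.05 for all genes. The cholesterol synthesis enzymes had a median of -0.23, the 7 fatty acid synthesis enzymes 0.02 and the 5 regulators 0.15. The direction rested on 1 array: without PTIP +/+ replicate 2, 28 of 30 were higher in PTIP -/- and the median was 0.28, and without PTIP +/+ replicate 1, 25 of 30 were lower and the median was -0.52. The signals of the genotypes did not overlap for 4 genes, against 28.6% of all genes: Pmvk and Ebp were lower and Insig2 and Scd2 higher in PTIP -/-.

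Taking the arrays by genotype instead shows where the difference lay. Between the PTIP +/+ arrays, replicate 2 was at least 1.5-fold above replicate 1 for 16 of 30 genes, where 17.3% of all genes were, with a median log2 difference of 0.82 beside -0.03. Between the PTIP -/- arrays that held for 4 of 30, where 15.8% of all genes were, with a median of -0.07 beside -0.04. The 4 were Fdft1, Sqle, Insig1 and Scap. Counted with its sign, replicate 2 minus replicate 1 was higher in PTIP +/+ than in PTIP -/- for 27 of 30 genes, the other 3 being Srebf1, Scap and Fasn. Counted by size in either direction, the difference was larger in PTIP +/+ for 23 of 30, and Pmvk, Sc5d, Srebf2 and Insig2 joined the exceptions. Fitted with genotype as a term in limma, the replicate number was called for 0 of 30 genes at an adjusted p under 0.05, where 0.64% of all genes were called, and for 3 at an unadjusted p under 0.05, where 22.8% of all genes were. The smallest adjusted p was 0.129, for Fdft1. That the numbers differ more in 1 genotype than in the other was not tested, since each combination of genotype and number has 1 array.

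**Figure D3:**
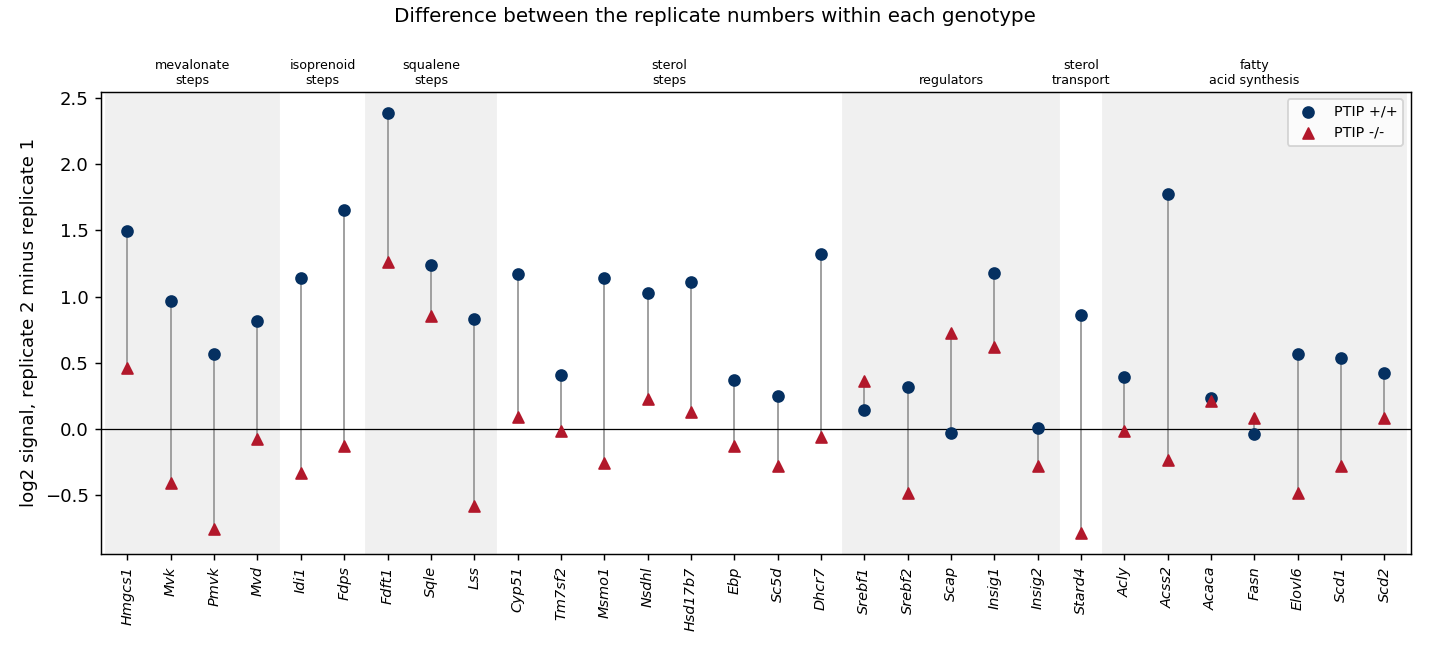
Difference in log2 signal between replicate 2 and replicate 1 for each of the 30 genes, with circles for PTIP +/+ and triangles for PTIP -/-, joined by a line. The circles lie above 0 for 28 genes and the triangles for 12, and the circle lies above the triangle for 27.

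Promoters are shown for 6 genes, chosen after their values were seen, whose signals frame the result: Hmgcs1, Mvk, Idi1, Lss and Msmo1, all more than 1.5-fold lower in PTIP -/- in number 2, and Fasn, which was level on all 4 arrays. SREBPs bind sterol regulatory elements and act together with NF-Y, which binds CCAAT, and with Sp1, which binds GGGCGG. The sequences are RefSeq's, assembly GRCm38.p6, and cover the 250 bases before the annotated start, read 5′ to 3′ on the strand of the gene. They lie at chr13:119690101-119690350 (plus strand), chr5:114444019-114444268 (plus), chr13:8885356-8885605 (plus), chr10:76531355-76531604 (plus), chr8:64733579-64733828 (minus) and chr11:120824548-120824797 (minus). Capitals mark CCAAT on either strand, which reads ATTGG when it lies on the other, and in Hmgcs1 also the only match among these genes' windows to the sterol element letters TCACNCCAC.
Hmgcs1: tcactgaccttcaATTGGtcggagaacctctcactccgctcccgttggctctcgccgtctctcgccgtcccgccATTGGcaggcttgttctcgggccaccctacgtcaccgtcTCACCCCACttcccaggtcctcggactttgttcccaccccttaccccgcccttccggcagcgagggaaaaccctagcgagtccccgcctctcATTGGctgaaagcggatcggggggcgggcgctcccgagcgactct
Mvk: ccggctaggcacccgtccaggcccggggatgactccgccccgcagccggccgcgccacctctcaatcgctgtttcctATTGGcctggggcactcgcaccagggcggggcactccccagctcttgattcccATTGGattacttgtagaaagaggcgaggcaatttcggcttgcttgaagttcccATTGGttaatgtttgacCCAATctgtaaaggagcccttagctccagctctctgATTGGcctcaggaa
Idi1: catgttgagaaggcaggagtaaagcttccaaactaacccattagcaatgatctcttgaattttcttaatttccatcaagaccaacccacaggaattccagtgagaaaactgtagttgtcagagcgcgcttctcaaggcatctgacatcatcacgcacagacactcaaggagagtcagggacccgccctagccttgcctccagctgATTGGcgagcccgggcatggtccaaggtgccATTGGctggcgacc
Lss: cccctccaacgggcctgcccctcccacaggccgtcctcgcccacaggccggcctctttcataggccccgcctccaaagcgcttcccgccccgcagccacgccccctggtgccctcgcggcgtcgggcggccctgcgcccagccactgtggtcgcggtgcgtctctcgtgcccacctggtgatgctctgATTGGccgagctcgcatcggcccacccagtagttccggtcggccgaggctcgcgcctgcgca
Msmo1: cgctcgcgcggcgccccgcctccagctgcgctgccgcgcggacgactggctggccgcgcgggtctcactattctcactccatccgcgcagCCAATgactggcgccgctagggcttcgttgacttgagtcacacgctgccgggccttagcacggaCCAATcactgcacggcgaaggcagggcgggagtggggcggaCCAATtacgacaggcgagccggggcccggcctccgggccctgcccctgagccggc
Fasn: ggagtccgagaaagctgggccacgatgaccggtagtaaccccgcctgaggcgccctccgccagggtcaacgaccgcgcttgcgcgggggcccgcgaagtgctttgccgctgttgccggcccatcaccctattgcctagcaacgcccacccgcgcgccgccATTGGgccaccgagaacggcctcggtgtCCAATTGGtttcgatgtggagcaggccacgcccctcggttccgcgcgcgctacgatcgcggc

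RefSeq windows were at hand for 24 of the 30 genes, 32 windows in all. CCAAT stood on either strand in 21 of the 32 (65.6%), against 33.8% of all 32851 windows and 34.8% of the 12937 windows of genes tested. Mvk held 5 matches, Hmgcs1, Msmo1 and Fasn 3 each, the last 2 of Fasn overlapping on opposite strands, Idi1 2 and Lss 1. GGGCGG stood in 23 of 32 (71.9%), against 32.7% of all windows and 56% of those of genes tested. The E-box CACGTG stood in 5 of 32 (15.6%), against 6.02% and 8.12%, and TCACNCCAC in 1 of 32 (3.12%), against 1.05% and 1.02%. Fasn, whose signal did not follow the others, carried CCAAT as they did but differed from them in GGGCGG. It had 0 matches to GGGCGG, against 1 in Idi1 and 2 each in Hmgcs1, Mvk, Lss and Msmo1. Whether either bears on the signals was not tested. A match describes letters and not a bound site.

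The mevalonate steps open the route to sterols. Hmgcs1, the cytosolic HMG-CoA synthase, had signals of 4940.2 and 6794.3 on PTIP -/- replicates 1 and 2, against 3898.5 and 11006.2 on the PTIP +/+ pair (the order kept below). The PTIP +/+ arrays thus lay on either side of both PTIP -/- arrays. It was 1.27-fold higher in PTIP -/- in number 1 and 1.62-fold lower in number 2, a fitted log2 change of -0.18 ± 0.59 (SE, n = 2 per genotype, limma adjusted p = 0.999, as for all 30 genes). Its other probe sets did not all follow: of 4, all were higher in number 1, 1 was level in number 2 (log2 0.03), and 3 had a fitted change above 0 (0.16, 0.36 and 0.09). Mvk, mevalonate kinase, read 676.6 and 508.0 against 553.8 and 1083.4, which is 1.22-fold higher and 2.13-fold lower. Mvd, the mevalonate diphosphate decarboxylase, read 346.3 and 327.5 against 286.9 and 504.4. It had the same directions, 1.21-fold higher and 1.54-fold lower. Pmvk, phosphomevalonate kinase, departed from these in number 1. It read 482.8 and 285.9 without PTIP, against 493.0 and 729.5 with it, nearly equal in number 1 and 2.55-fold lower in number 2, with a log2 change of -0.69 ± 0.41 (SE), the lowest of the 30.

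Farnesyl diphosphate, the branch point to sterols and to protein prenylation, is made by Idi1 and Fdps. Fdps, the farnesyl diphosphate synthase, read 3750.3 and 3424.6 without PTIP, against 2590.2 and 8162.9 with it. The PTIP -/- arrays were alike, a mean log2 signal of 11.81 ± 0.09 (SD, n = 2), while the PTIP +/+ arrays differed by 3.15-fold, 12.17 ± 1.17 (SD, n = 2). The genotype difference was 1.45-fold higher in number 1 and 2.38-fold lower in number 2. Idi1, the isopentenyl diphosphate isomerase, read 2391.4 and 1897.4 against 1742.0 and 3835.1, 1.37-fold higher and then 2.02-fold lower.

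Squalene synthase, Fdft1, commits the route to sterols and differed most between the numbers. It read 967.1 and 2322.1 without PTIP, against 790.1 and 4145.6 with it, so that replicate 2 was 2.40-fold above replicate 1 in PTIP -/- and 5.25-fold in PTIP +/+. Sqle, the squalene epoxidase, a slow step of the route, read 3145.2 and 5682.5 against 2946.9 and 6963.7, with number 2 above number 1 in both genotypes and genotype differences of only 1.07-fold and 1.23-fold. For both genes the signal differed more between the numbers than between the genotypes. Lss, which closes the ring to lanosterol, read 709.3 and 472.5 against 561.2 and 997.9 and was 2.11-fold lower in PTIP -/- in number 2. Its second probe set gave log2 differences of 0.57 and 0.18 in numbers 1 and 2, so the lower signal in number 2 was seen on the brightest probe set and not on that one.

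The 8 enzymes that turn lanosterol into cholesterol were all lower in PTIP -/- in number 2, by -1.16 to -0.07 on the log2 scale, and 7 of them were higher in number 1. Msmo1, a methylsterol oxidase, read 3605.1 and 3008.1 against 3045.2 and 6720.5, with PTIP +/+ replicate 2 far above the other 3 arrays, and was 2.23-fold lower in number 2. Cyp51, the lanosterol demethylase, read 1726.9 and 1836.2 against 1392.2 and 3139.3 (log2 change -0.23 ± 0.47, SE). Dhcr7, the reductase of the last step, read 390.0 and 372.7 against 262.9 and 658.6. In both, the PTIP -/- arrays were nearly equal and lay between the PTIP +/+ arrays. Nsdhl and Hsd17b7, which work with Msmo1 in removing methyl groups, read 1256.5 and 1468.2 against 1004.9 and 2047.5, and 709.1 and 775.7 against 441.9 and 953.1. Hsd17b7 had the largest difference of these enzymes in number 1, at 1.60-fold higher. Ebp, a sterol isomerase, Sc5d, a sterol desaturase, and Tm7sf2, a sterol reductase, differed by at most 1.43-fold in either number. Ebp read 1541.6 and 1411.6 against 1560.1 and 2012.8, and the other probe sets of Sc5d gave 0.25 and 0.06 in number 2 where the brightest gave -0.35.

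The genes that sense and pass on sterol level behaved less alike. Insig1, an SREBP target that feeds back on the pathway, read 937.3 and 1438.5 without PTIP, against 697.5 and 1577.4 with it. That is the order of arrays seen for Hmgcs1, with number 2 above number 1 in both genotypes. Insig2, its relative under other control, read 1408.0 and 1160.4 against 1064.5 and 1066.8. It was 1.32-fold and 1.09-fold higher in PTIP -/- in numbers 1 and 2, and its other 2 probe sets were higher in both numbers too (log2 0.79 and 0.50 in number 1, 0.13 and 0.24 in number 2), with a log2 change on the brightest of 0.26 ± 0.26 (SE). Srebf2, which encodes the SREBP that mainly drives cholesterol synthesis, read 1635.7 and 1170.9 against 1132.0 and 1408.2. Srebf1, whose products lean to fatty acid synthesis, read 1383.0 and 1775.8 against 1351.4 and 1491.4, differences of at most 1.19-fold in either number. Scap, the escort protein, read 1462.3 and 2421.9 against 1709.6 and 1670.2 and ran against the enzymes: PTIP -/- was 1.17-fold below PTIP +/+ in number 1 and 1.45-fold above it in number 2. On the brightest probe sets the 5 fitted changes were all above 0, from 0.13 to 0.26. With centred arrays, however, 4 of them lay below 0 and Insig2 at 0.08. The second probe set of Srebf2 gave -0.14, where the brightest gave 0.13. Array signals are of mRNA and do not show SREBP processing.

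Stard4, a sterol carrier and SREBP target, gave the pattern with the order of arrays seen for Mvk, Lss and Msmo1. It read 1423.5 and 826.3 without PTIP, against 906.8 and 1645.7 with it. It was 1.57-fold higher in number 1 and 1.99-fold lower in number 2, with replicate 2 below replicate 1 in PTIP -/- by 1.72-fold and above it in PTIP +/+ by 1.81-fold. Its other 2 probe sets gave 0.71 and 1.08 in number 1 and -0.96 and -1.33 in number 2.

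Fatty acid synthesis was split between enzymes that followed the sterol genes and enzymes that stayed level. Acss2, which makes acetyl-CoA from acetate, read 219.3 and 186.2 without PTIP, against 135.5 and 464.5 with it. It was 1.62-fold higher in number 1 and 2.49-fold lower in number 2, close to Fdps in both. Its other probe sets gave log2 differences of 1.86 and 0.51 in number 1 and -1.36 and 0.21 in number 2. Their changes over all arrays were 0.25 and 0.36, where the brightest gave -0.31, so the sign depended on the probe set. Elovl6, an elongase, read 1933.9 and 1381.0 against 1507.4 and 2234.8, 1.28-fold higher and 1.62-fold lower. Fasn, the fatty acid synthase, read 2884.2 and 3051.8 against 2959.5 and 2884.8, within 1.06-fold in every pairing given here, and its log2 change was 0.02 ± 0.24 (SE). Acaca, acetyl-CoA carboxylase, which makes malonyl-CoA, read 1106.4 and 1281.7 against 1186.3 and 1397.1, and Acly, ATP citrate lyase, 3387.1 and 3342.3 against 2805.9 and 3683.4.

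The 2 stearoyl-CoA desaturases differed in number 2. Scd1 read 3736.7 and 3079.9 without PTIP, against 2730.7 and 3950.5 with it, 1.37-fold higher and 1.28-fold lower. Scd2, the form common outside liver and fat, read 10600.3 and 11189.5 against 7516.5 and 10065.2, higher in PTIP -/- in both numbers with groups that did not overlap (log2 change 0.32 ± 0.28, SE, the highest of the 30). Its other 2 probe sets were higher in number 1, by 0.91 and 1.29, and lower in number 2, by -0.28 and -0.35, so the sign in number 2 depended on the probe set.

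Other probe sets bore on the pattern where a gene had them. Of 40 further probe sets of these genes, 32 of 18 genes lay above the filter. In number 1 the sign matched that of the brightest for 31 of the 32, in number 2 for 22. As many as 22 of the 32 were higher in PTIP -/- in number 1 and lower in number 2. Probe sets of a gene share the RNA and the array and are not replicates.

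Of 31 further genes of sterol and fatty acid handling listed beside these, 27 were tested and 0 passed with limma over all genes. Higher in PTIP -/- were 13 and lower 14 (median log2 change -0.02), and 8 of 27 were higher in number 1 and lower in number 2. The 4 with the largest fitted change, in either direction, were Lpin1, Abcg1, Mylip and Tmem97. Lpin1, a phosphatidate phosphatase, read 267.0 and 399.0 without PTIP, against 74.0 and 295.5 with it, lowest on PTIP +/+ replicate 1 (log2 change 1.14 ± 0.76, SE). Tmem97, a sterol-regulated membrane protein, read 850.8 and 543.3 against 1089.3 and 1143.6 and was lower in PTIP -/- in both numbers (-0.72 ± 0.33, SE). Mylip, a ubiquitin ligase that limits lipoprotein receptors, read 1109.1 and 2941.9 against 773.4 and 1458.2 and was higher in PTIP -/- in both numbers (0.77 ± 0.63, SE).

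Liver X receptors respond to sterol excess, and the list of these receptors and the efflux transporters they control had 3 tested genes with no common order. Nr1h3, a liver X receptor, read 53.5 and 51.3 against 51.0 and 93.6, near the filter, and was highest on PTIP +/+ replicate 2 like the synthesis enzymes. Abcg1, a sterol efflux transporter, read 349.1 and 206.3 against 264.8 and 71.3, lowest on PTIP +/+ replicate 2, where the enzymes stood highest. Abca1, the other efflux transporter, is described, as is Nr1h3, because of its values and not by a rule. It read 305.5 and 1091.0 without PTIP, against 750.8 and 286.8 with it. PTIP -/- was 2.46-fold below PTIP +/+ in number 1 and 3.80-fold above it in number 2, the reverse of the enzymes in both. The fitted changes were -0.40 ± 0.39 (SE) for Nr1h3, 0.97 ± 0.75 (SE) for Abcg1 and 0.32 ± 0.83 (SE) for Abca1. None of these passed. The highest array was PTIP -/- replicate 2 for 9 of the 27 further genes, Abca1, Mylip and Lpin1 among them. That held for 25.9% of all genes and 4 of the 30 genes (Srebf1, Scap, Fasn and Scd2).

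**Figure D4:**
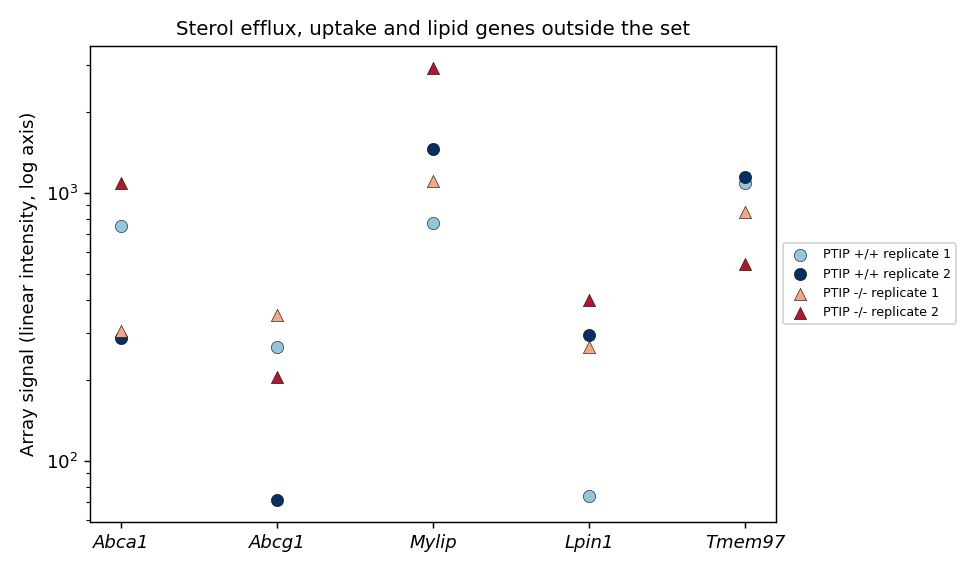
Array signal (linear intensity on a log axis) of 5 genes outside the set, with circles for PTIP +/+ and triangles for PTIP -/- and the darker shade for replicate 2. Abcg1 and Abca1 are lowest on PTIP +/+ replicate 2, the dark circle, at 71.3 and 286.8.

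Genes of dividing cells shared part of this. Of 7 proliferation genes tested, 0 passed with limma. In PTIP -/-, 7 read lower over all arrays (median log2 change -0.45), 7 in number 1 and 6 in number 2. Of all 12509 genes, 5495, 5786 and 5703 were lower in these comparisons, in that order. The medians of the 7 were -0.22 in number 1 and -0.68 in number 2, beside 0.03 and 0.05 for all genes. PTIP +/+ replicate 2 was the highest array for 4 of the 7, against 24.9% of all genes. These were Mki67, Top2a, Pcna and Rrm2, at 6254.9, 7286.6, 17462.2 and 16316.3. Mcm2, Mcm5 and Cdk1 were highest on PTIP +/+ replicate 1. The difference of the 7 genes in number 1 had the opposite sign to that of the sterol enzymes, 15 of which were higher in PTIP -/- there. The part of cell division in the signals of the sterol enzymes was not tested, and a difference in culture or in RNA between the numbers cannot be told apart from the number itself.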

How the data were processed

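Total RNA of 4 fibroblast samples was measured on Affymetrix arrays. The deposited values are linear intensities, 1 per probe set. Per the submitters' processing notes RMA was used, with no version, but the deposited intensities have unequal quantiles and a common trimmed mean, and the sources used here do not state the background correction. A single 0 was replaced by 0.1, log2 was taken, and 64 control probe sets were left out. Symbols came from the platform annotation (34945 probe sets with 1 symbol, 932 with several, 9160 with none listed), and were brought up to date through RefSeq GRCm38.p6 gene numbers, which 34741 of those with 1 symbol matched. Genes were tested where the brightest probe set's mean reached the 40th percentile, 47.68. The genotypes were compared with limma 3.58.1 (R 4.3.3) without covariates, with 2 residual degrees of freedom and Benjamini-Hochberg adjustment over all genes tested. The smallest two-sided p that an exact permutation test of 1 gene allows here is 0.333. The model was tested on simulated data. Values within 1 replicate number set 1 array against 1 array and carry no test. Counts of sizes use 1.5-fold.

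The genes, lists and tests were chosen with earlier results of these data known. Named outside the set are the 4 of the fixed list with the largest absolute change, since 0 differed by 1.5-fold the same way in both numbers, and Abca1, Nr1h3 and the examples of the closing section, chosen after their values were seen. Proliferation and marker genes came from fixed lists. Alternatives were quantile normalization, median centring, dropping the filter or raising it to the 60th percentile, raising dim signals to the filter, a pseudocount of 16, a variance trend with robust moderation, averaging all probe sets per gene, each further probe set, the replicate number as a block and each array left out.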

Additional observations from a re-analysis of the deposited data

How the results depend on the processing

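Under every alternative run, 0 genes and 0 of the 30 passed at an adjusted p under 0.05 with limma, the replicate block included (0 of 12509 genes, smallest adjusted p among the 30 genes 0.64). The block leaves 1 residual degree of freedom and changes no fitted difference. Same-numbered samples deviated from their genotype means together (r = 0.69 across genes, which are not independent replicates), but there are 2 pairs and the labels do not say what a number marks. The median log2 change of the 30 genes lay between -0.30, with centred arrays, and -0.04, with all probe sets averaged per gene, and between -0.52 and 0.28 with single arrays left out. For the cholesterol synthesis enzymes it lay between -0.41 and -0.10, and between -0.79 and 0.35 with single arrays left out, and for fatty acid synthesis enzymes between -0.16 and 0.06, and between -0.22 and 0.26. The sign of the fitted change differed from the main setting for 8 genes with centred arrays, 5 with probe sets averaged, 17 without PTIP +/+ replicate 2 and 6, 7 and 6 without PTIP -/- replicate 1, PTIP -/- replicate 2 and PTIP +/+ replicate 1. Of the changes of single genes under these alternatives, 400 moved by less than the SD of the 2 within-number differences and 22 by more. This count does not measure stability. The SD is wide where the 2 differences have opposite signs, and settings that cannot change a fitted value, such as the block, are counted. Without PTIP +/+ replicate 2, Fdps went from -0.36 to 0.47 and still fell among the 400. The count higher in number 1 and lower in number 2 was 21 or 22, that at least 1.5-fold lower in number 2 was 12 to 16 and that highest on PTIP +/+ replicate 2 was 21 to 26. These counts were chosen after seeing the data. The mean signals of all 30 genes lay above the filter and above its stricter setting, the 60th percentile (145.8). The lowest single signal, 135.5 for Acss2 on PTIP +/+ replicate 1, lay below that stricter level. The part of dim signal in the differences was not tested.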

Other observations

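Of the genes on the fatty acid side outside the set, Lpin1 among them, 0 of 11 tested passed with limma (4 higher, 7 lower, median log2 change -0.05). The examples here and in the next paragraph were chosen after their values were seen. Fads1, a desaturase of polyunsaturated fatty acids, had signals of 2582.3 and 2130.6 on the PTIP -/- arrays, replicate 1 first, against 2449.6 and 3363.7 on the PTIP +/+ arrays, near equal in number 1 and 1.58-fold lower in number 2. Me1, the malic enzyme that supplies NADPH, read 3333.1 and 3537.0 against 2948.5 and 3614.5. Mid1ip1, an activator of acetyl-CoA carboxylase, read 2564.7 and 2951.4 against 2108.7 and 3883.8, with PTIP +/+ replicate 2 the highest array, as for 6 of these 11 genes.

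The proteases and degradation factors that act on SREBPs and their partners showed no common order. Mbtps1, the protease that makes the first cut, read 2618.5 and 4128.1 against 2381.1 and 3379.7, with number 2 above number 1 in both genotypes. Mbtps2, which makes the second, read 1273.4 and 1353.4 against 1210.7 and 1099.0. Erlin1, which takes part in sterol-regulated degradation, read 3384.2 and 1936.8 against 3654.2 and 2324.9, with number 2 below number 1 in both. The 5 tested genes of this list had a median log2 change of 0.02 and 0 passed.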
